A study of Caenorhabditis elegans with 30 samples.

Results

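The snf genes encode transporters of the sodium-coupled SLC6 family of *C. elegans*. Members were the probe sets that the array annotation assigns to a single gene named snf-1, snf-2, snf-3, snf-5, snf-6, snf-9, snf-10, snf-11 or snf-12. These 9 genes, of 17118 that the array measures singly, were measured by 15 of the 22548 probe sets that are not controls. A further probe set, 183865_s_at, is shared by snf-9 and Y43D4A.1 and was left out.

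SLC6 transporters carry small molecules such as neurotransmitters, amino acids and betaine into cells by coupling them to the sodium gradient. Betaine is an organic osmolyte, a solute that cells can gather against an outside salt load without harm to their proteins. In mammals, the betaine transporter of the kidney is known to be induced by hypertonicity, and in *C. elegans* SNF-3 is the betaine transporter. Other worm members have known roles far from osmolytes: SNF-11 takes up GABA, SNF-6 takes up acetylcholine at neuromuscular junctions, SNF-10 acts in sperm activation and SNF-12 acts in innate immune signalling of the epidermis.

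The study asked how hypertonicity and mutations that give osmotic stress resistance change gene expression in whole young adults. Synchronized animals were sorted by a flow instrument that left out larvae, and RNA of each sample was hybridized to an Affymetrix GeneChip, 30 in all, with 3 arrays in each of 10 groups. The 5 mutant groups were the osm strains osm-11(n1604), osm-8(n1518) and osm-7(n1515) and the dpy strains dpy-10(e128) and dpy-9(e12), and all of them were raised on isotonic plates with 51 mM NaCl. The 4 exposed groups were wild type N2 animals placed on hypertonic plates with 200 mM NaCl for 15 min, 1 h or 6 h, or grown there for 1 generation. N2 on isotonic plates was the common reference, so all 9 comparisons with it share the same 3 arrays. Each mutant was a single allele, and the arrayed RNA preparations were picked for quality from a larger number of replicates. As background, osm-8 encodes a mucin-like protein, osm-7 and osm-11 encode secreted proteins of the epidermis, and both dpy genes encode cuticle collagens.

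Values are GC-RMA intensities, given here as log2 intensity, a scale on which 1 unit is a 2-fold difference. The array medians lay between 9.97 and 14.5 on the linear scale, and arrays of the same group correlated at 0.99 or above over all probe sets. A probe set was tested if its third-highest reading among the 30 arrays put it in the top 61.5%, which set the limit at a log2 intensity of 3.24. A call needed an adjusted p of at most 0.01 in limma and a change of at least 3-fold (1.58 on the log2 scale). The mutated genes gave little check of the labels. The osm-7 probe set stood at 3.19 both in osm-7 mutants and in N2, the osm-8 probe set at 2.75 in osm-8 mutants and 2.38 in N2, the osm-11 probe set at 10.98 in osm-11 mutants and 8.47 in N2, and the dpy-9 probe set at 5.09 in dpy-9 mutants and 4.53 in N2, while dpy-10 had no probe set of its own.

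In all, 11 probe sets of 6 members were tested: 3 each for snf-1 and snf-5, 2 for snf-3 and 1 each for snf-2, snf-9 and snf-11. The other 4 probe sets stayed below the limit, namely the second snf-2 probe set and the only probe sets of snf-6, snf-10 and snf-12, so these 3 genes have levels but no test. Some of the tested probe sets passed the filter through the groups in which they were high. The snf-2 probe set 193774_s_at was at or above 3.24 on 8 of the 30 arrays, the snf-11 probe set on 5, the snf-5 probe sets 188234_s_at and 194240_x_at on 9 and 12, and the snf-3 probe set 174111_at on 22, in each case on none of the 3 isotonic N2 arrays. For snf-2, snf-11 and 188234_s_at all of these arrays were of osm-8, dpy-9 or dpy-10 mutants, so that they were tested only because they were high there, and their p-values and calls in these mutants are a description.

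The betaine transporter gene snf-3 was the member that changed in wild type animals under salt. Its main probe set, 193834_at, rose within 15 min, was higher again at 6 h and after 1 generation, and was high in all 5 mutants without any added salt. On isotonic plates the 3 N2 arrays gave log2 intensities of 3.89, 3.91 and 3.23. After 15 min on 200 mM NaCl they were 4.80, 4.34 and 4.69, and after 1 h they were 4.64, 4.86 and 4.28. After 6 h they reached 6.14, 6.28 and 6.12, and after 1 generation 6.14, 6.43 and 6.30. The 15 min and 1 h arrays lay above every isotonic array and overlapped each other, and the 6 h and 1 generation arrays lay above all of the earlier ones and also overlapped each other.

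The change at 15 min was 0.93 (SE 0.19), a 1.90-fold rise with an adjusted p of 0.00445, and at 1 h it was 0.91 (SE 0.19), a 1.88-fold rise with an adjusted p of 0.0074. Both were under the 3-fold minimum, and no snf probe set was called at these times, against 1.28% of all tested probe sets called higher and 0.274% called lower at 15 min, and 0.981% and 0.166% at 1 h. At 6 h the change was 2.50 (SE 0.19, adjusted p = 3.34e-06), a 5.66-fold rise, and after 1 generation it was 2.62 (SE 0.19, adjusted p = 3.2e-06), a 6.13-fold rise. This was the single snf probe set called at each of these times, where 0.7% of all tested probe sets were called higher and 0.663% lower at 6 h, and 0.959% and 0.224% after 1 generation. 0 snf probe sets were called lower at any of the 4 times. Since whole animals were measured, a change in the number of cells that express a gene and a change in its RNA per cell cannot be told apart.

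Between successive times, the level after 1 h differed from that after 15 min by -0.02 (95% interval -0.43 to 0.40, adjusted p = 0.992). The step between 6 h and 1 h was 1.59 (SE 0.19, adjusted p = 0.000136) and passed the 3-fold minimum with almost nothing to spare. That step was the only call among the snf probe sets, beside 0.346% of all probe sets called higher, and it missed the 3-fold minimum without the third 1 h array or without the second 6 h array. After 1 generation the level differed from that at 6 h by 0.12 (95% interval -0.30 to 0.53, adjusted p = 0.839).

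Cell type marker sums also moved during the salt series, in different ways at different times. At 6 h those of the intestine were above their isotonic range, and those of oocytes and early embryos, epidermis and body wall muscle overlapped it. The summed intensity of 12 oocyte and early embryo markers ranged over the arrays from 83700 to 86700 at 6 h and from 83900 to 90300 on isotonic plates, and that of 11 epidermis markers from 1120 to 1170 at 6 h and from 1010 to 1190 on isotonic plates. Body wall muscle markers, 12 genes, summed to between 28800 and 29300 at 6 h and to between 28900 and 31000 on isotonic plates, while the 12 intestine markers summed to between 54800 and 60700 at 6 h and to between 46600 and 51000 on isotonic plates. After 1 generation, when snf-3 was also called, all 4 sums lay outside their isotonic range. The oocyte and early embryo sum was lower, between 70500 and 73400, while the muscle sum was between 34500 and 39400, the epidermis sum between 1290 and 1560 and the intestine sum between 60400 and 62700. At 15 min the oocyte and early embryo sum was between 66500 and 69300, the muscle sum between 34000 and 37200 and the epidermis sum between 1280 and 1300, and the intestine sum overlapped isotonic plates. At 1 h the oocyte and early embryo sum was between 67800 and 76700 and the muscle sum between 38300 and 44000, and the other sums overlapped isotonic plates. None of these lists had a gene called at 6 h or after 1 generation. At 15 min the intestine gene cpr-1 was called lower, beside 0.274% of all probe sets. At 1 h the epidermis genes sym-1 and noah-1 were called higher, beside 0.981%. The part of these shifts in the snf-3 result was not tested.

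**Figure D1:**
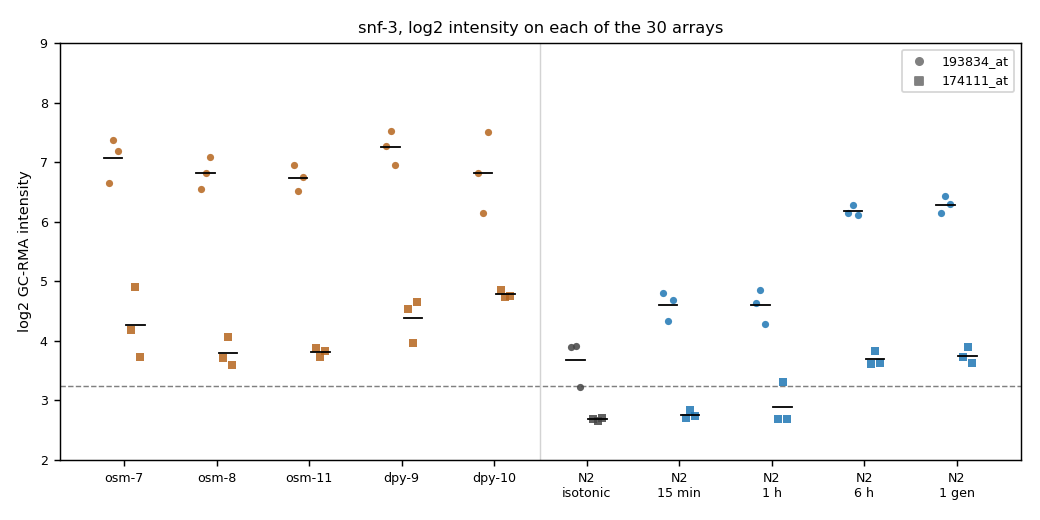
log2 GC-RMA intensity (y axis) of the snf-3 probe sets 193834_at (circles) and 174111_at (squares) on each array of the 10 groups (x axis), with mutants on isotonic plates at the left and N2 at the right; black bars are means of 3 arrays and the dashed line is the filter limit of 3.24. Every mutant array of 193834_at lies at 6.14 or above, and the isotonic N2 arrays lie at 3.91 or below.

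In the mutants, snf-3 was high on isotonic plates. The osm-7 arrays gave 6.65, 7.38 and 7.19 for 193834_at, the osm-8 arrays 6.55, 6.82 and 7.09, and the osm-11 arrays 6.95, 6.52 and 6.75. The dpy-9 arrays gave 7.28, 7.52 and 6.95 and the dpy-10 arrays 6.82, 6.14 and 7.51, against 3.89, 3.91 and 3.23 on the isotonic N2 arrays. No mutant array overlapped the isotonic N2 arrays, and the 5 mutants overlapped each other. The changes against N2 were 3.39 in osm-7 mutants (adjusted p = 6.46e-07), 3.15 in osm-8 mutants (adjusted p = 3.14e-07), 3.06 in osm-11 mutants (adjusted p = 1.6e-06), 3.57 in dpy-9 mutants (adjusted p = 2.5e-08) and 3.14 in dpy-10 mutants (adjusted p = 9.59e-08), each with an SE of 0.30. As folds these were 10.5, 8.85, 8.35, 11.9 and 8.84 in the same order. In each of the 5 mutants the muscle and intestine marker sums lay above their isotonic N2 range and the oocyte and early embryo sum below it, and their part in the snf-3 result was not tested.

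The mutants' background of calls was wide and unequal. The share of all tested probe sets called higher was 1.85% in osm-7 mutants, 7.91% in osm-8 mutants, 3.18% in osm-11 mutants, 16% in dpy-9 mutants and 18.1% in dpy-10 mutants, and the share called lower was 0.267%, 0.887%, 0.216%, 7.98% and 10.2% in the same order. Among the 11 tested snf probe sets, 2 were called higher in osm-7 mutants, both of snf-3, 4 in osm-8 mutants and 1 in osm-11 mutants. In dpy-9 and in dpy-10 mutants 7 were called higher, and 0 were called lower in any mutant. The 4 in osm-8 mutants were of 2 genes and the 7 in each dpy mutant of 4 genes, with 3 probe sets of snf-5 each time. They include snf-5 188234_s_at and, in the dpy mutants, snf-2 193774_s_at, which were tested only because they were high in osm-8 or dpy mutants. The counts in these mutants are therefore a description beside the shares of all probe sets. The median of all tested probe sets shifted by -0.07 in osm-7 mutants, -0.16 in osm-8 mutants, -0.11 in osm-11 mutants, -0.23 in dpy-9 mutants and -0.22 in dpy-10 mutants. With each array centred on its own median, snf-3 changed by 3.35 in osm-7 mutants, 3.06 in osm-8 mutants, 2.97 in osm-11 mutants, 3.48 in dpy-9 mutants and 3.05 in dpy-10 mutants.

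The mutants on isotonic plates were also set against N2 grown for 1 generation on 200 mM NaCl, a comparison in which genotype and salt both differ. For 193834_at the difference was 0.78 in osm-7 mutants (95% interval 0.24 to 1.31, adjusted p = 0.0712), 0.53 in osm-8 mutants (95% interval -0.01 to 1.06, adjusted p = 0.0993), 0.45 in osm-11 mutants (95% interval -0.09 to 0.98, adjusted p = 0.266) and 0.53 in dpy-10 mutants (95% interval -0.01 to 1.06, adjusted p = 0.0704). In dpy-9 it was 0.96 (95% interval 0.42 to 1.49), which passed the adjusted p limit at 0.0021 but was a 1.94-fold difference. Within the mutants, osm-11 differed from osm-7 by -0.33 (adjusted p = 0.914), osm-8 from osm-7 by -0.25 (adjusted p = 0.574) and dpy-10 from dpy-9 by -0.43 (adjusted p = 0.488), and the mean of both dpy mutants differed from osm-8 by 0.21 (95% interval -0.33 to 0.76, adjusted p = 0.527).

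The second snf-3 probe set, 174111_at, was dimmer and moved the same way by less. The isotonic N2 arrays read 2.68, 2.66 and 2.70, all below the filter limit. The 15 min arrays read 2.71, 2.83 and 2.74, the 1 h arrays 2.69, 3.31 and 2.68, the 6 h arrays 3.61, 3.83 and 3.62 and the 1 generation arrays 3.72, 3.90 and 3.62. The 6 h and 1 generation arrays did not overlap the isotonic or earlier ones. The change was 1.01 at 6 h (SE 0.14, adjusted p = 0.000496) and 1.07 after 1 generation (SE 0.14, adjusted p = 0.000326), each close to 2-fold, or at least 1.36-fold and 1.42-fold against the filter limit, and 0.08 at 15 min (adjusted p = 0.755), so the early rise of 193834_at was not seen with this probe set.

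In osm-7 mutants 174111_at read 4.18, 4.91 and 3.73, a change of 1.60 (SE 0.24, adjusted p = 0.000178) that just passed the 3-fold minimum. Without the second osm-7 array the change was 1.28 (adjusted p = 0.00056), and with arrays centred on their medians it was 1.55, both short of 3-fold. It was called in dpy-9 mutants, where the arrays read 4.53, 3.96 and 4.65 (1.71, SE 0.24, adjusted p = 7.91e-06), and in dpy-10 mutants, where they read 4.86, 4.73 and 4.75 (2.10, SE 0.24, adjusted p = 6.69e-07). In dpy-9 the change was 1.57 without the third dpy-9 array and 1.32 with quantile normalization, both short of 3-fold. The osm-8 arrays at 3.71, 4.07 and 3.60 and the osm-11 arrays at 3.88, 3.72 and 3.83 gave changes of 1.12 (adjusted p = 0.00103) and 1.13 (adjusted p = 0.00247), under 3-fold. Against the filter limit of 3.24 in place of the dim N2 mean, the rise was at least 2.05-fold in osm-7 mutants, 2.20-fold in dpy-9 mutants and 2.90-fold in dpy-10 mutants. Over the 10 group means the snf-3 probe sets had a Pearson r of 0.918, and over the 30 arrays 0.856, as a description.

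By the likeness of log2 group means over the 10 groups, the probe sets nearest to snf-3 193834_at were those of T10B10.4 (Pearson r = 0.9663), osm-11 (0.9477), pck-2 (0.9422), cnc-3 (0.9414) and aqp-8 (0.9387). cnc-3 belongs to the caenacin antimicrobial peptide genes and aqp-8 encodes an aquaporin, a channel for water or small solutes. Of 13011 candidate probe sets, 1 reached an r above 0.95, so few probe sets followed snf-3 across the groups. The points of each of these correlations are the same 10 group means, which share the 30 arrays.

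The other genes of betaine and choline metabolism, together with betaine receptors, made a list of 17 genes of which 13 were tested. None was called in wild type animals at any time. The changes of the list ranged from -1.2 to 1.35 at 15 min and from -0.44 to 1.52 after 1 generation, so alh-9, given next, was not its largest. At 15 min alh-9, which encodes an aldehyde dehydrogenase of betaine synthesis, changed by 1.06 (SE 0.11, adjusted p = 2.93e-05) and after 1 generation by 1.01 (SE 0.11, adjusted p = 5.3e-05), both under 3-fold, and chdh-1, choline dehydrogenase, changed by 0.00 (SE 0.12, adjusted p = 1) and 0.07 (SE 0.12, adjusted p = 0.811). The receptor genes acr-23 and lgc-41 stayed under the filter limit in every group by their group means. The median change of the list was 0.20 after 1 generation, beside -0.04 over all probe sets.

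In the mutants some genes of the list were called. Over all probe sets, calls of higher level were also more frequent in each mutant than under salt. The choline kinase gene ckb-2 was called lower in osm-7 mutants (-1.89, adjusted p = 2.7e-07), osm-8 (-1.82, adjusted p = 7.87e-08), osm-11 (-2.01, adjusted p = 9.12e-08) and dpy-10 (-2.47, adjusted p = 6.08e-10), and was the only call of the list in osm-7 and osm-11. In osm-8 and dpy-10 3 genes were called higher, alh-12, sams-1 and sams-5, and in dpy-9 mutants 2 of them, alh-12 and sams-5. Of 13 tested genes these are 3, 3 and 2, and the shares of all probe sets called higher were 7.91% in osm-8 mutants, 18.1% in dpy-10 mutants and 16% in dpy-9 mutants, the last close to that of the list. The aldehyde dehydrogenase gene alh-12 changed by 2.15 in osm-8 mutants, 2.29 in dpy-9 mutants and 2.45 in dpy-10 mutants. The probe set of sams-5, an S-adenosylmethionine synthetase gene with close relatives in the genome whose RNA it may share, changed by 3.04 in osm-8 mutants, 4.78 in dpy-9 mutants and 4.79 in dpy-10 mutants. The median change of the list was 0.07 in osm-7 mutants, 0.61 in osm-8 mutants, -0.14 in osm-11 mutants, 0.34 in dpy-9 mutants and 0.47 in dpy-10 mutants, beside -0.07, -0.16, -0.11, -0.23 and -0.22 over all probe sets.

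snf-5 had a pattern unlike that of snf-3. It was not called at any salt exposure or in osm-7 and osm-11 mutants, was called higher in osm-8 mutants, and was higher still in both dpy mutants. Its probe set 173230_s_at read 5.67, 6.39 and 6.17 in osm-8 mutants, 7.92, 8.27 and 8.06 in dpy-9 mutants and 7.81, 7.81 and 7.85 in dpy-10 mutants, against 3.35, 3.57 and 3.41 in isotonic N2. The osm-7 arrays, at 3.57, 3.20 and 3.38, and the osm-11 arrays, at 3.34, 3.83 and 3.24, overlapped N2. The groups thus stood in 3 steps without overlap, N2 with osm-7 and osm-11 lowest, osm-8 between, and the dpy mutants highest.

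Against isotonic N2, 173230_s_at changed by 2.63 in osm-8 mutants (SE 0.19, adjusted p = 9.43e-09), 4.64 in dpy-9 mutants (SE 0.19, adjusted p = 3.2e-12) and 4.38 in dpy-10 mutants (SE 0.19, adjusted p = 6.79e-12), or 6.21-fold, 24.9-fold and 20.8-fold. The probe sets 194240_x_at and 188234_s_at gave 2.41 and 1.98 in osm-8 mutants, 4.99 and 3.83 in dpy-9 mutants, and 4.75 and 3.77 in dpy-10 mutants, each called. Their N2 levels were under the filter limit, at 2.98, 2.88 and 2.89 for 194240_x_at and 2.22, 2.20 and 1.88 for 188234_s_at. Set against that limit, the rise was at least 4.24-fold and 1.78-fold in osm-8 mutants, 25.3-fold and 6.43-fold in dpy-9 mutants, and 21.5-fold and 6.19-fold in dpy-10 mutants. In osm-7 the changes were -0.06, -0.09 and 0.01, and in osm-11 mutants 0.02, -0.03 and 0.08, in the order 173230_s_at, 194240_x_at, 188234_s_at, with 95% intervals within 0.47 of 0 on either side.

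The steps between mutants were compared directly, where the p-values and calls of 188234_s_at and snf-2 are again a description. snf-5 was higher in osm-8 than in osm-7 mutants by 2.70 (adjusted p = 9.24e-09) for 173230_s_at, 2.50 (adjusted p = 1.13e-08) for 194240_x_at and 1.97 (adjusted p = 3.96e-07) for 188234_s_at, 3 snf probe sets called where 4.76% of all probe sets were called higher. The mean of both dpy mutants was higher than osm-8 by 1.87 (adjusted p = 1.35e-07), 2.46 (adjusted p = 4.19e-09) and 1.82 (adjusted p = 1.49e-07), in a comparison in which 5.87% of all probe sets and 4 snf probe sets were called higher, the fourth being that of snf-2. dpy-10 differed from dpy-9 by -0.26, -0.24 and -0.06 (adjusted p = 0.5, 0.523 and 0.944), and 0.224% of all probe sets were called higher between them.

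**Figure D2:**
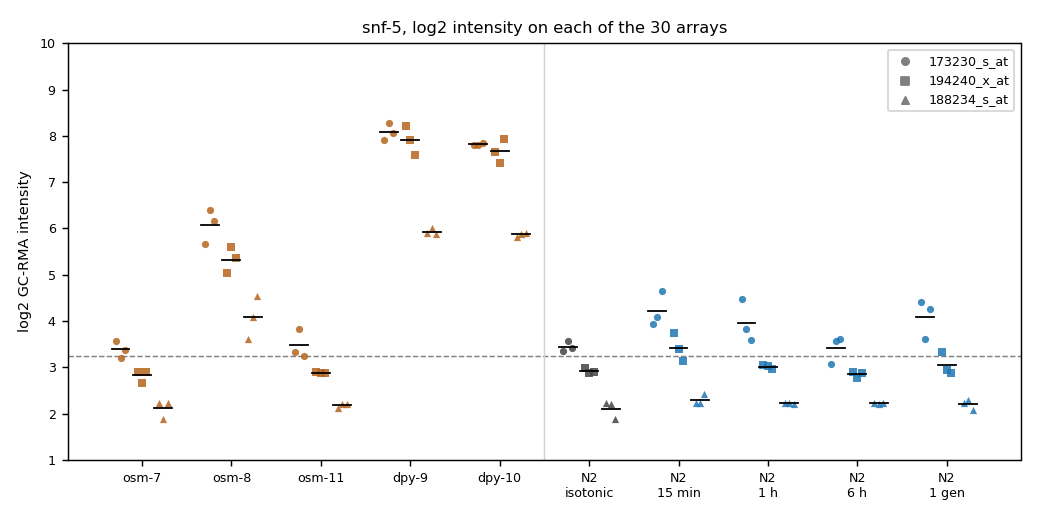
log2 GC-RMA intensity (y axis) of the snf-5 probe sets 173230_s_at (circles), 194240_x_at (squares) and 188234_s_at (triangles) on each array of the 10 groups (x axis), with mutants on isotonic plates at the left and N2 at the right; black bars are means of 3 arrays and the dashed line is the filter limit of 3.24. For 173230_s_at the dpy-9 and dpy-10 arrays lie at 7.81 or above, the osm-8 arrays between 5.67 and 6.39, and the isotonic N2 arrays at 3.57 or below.

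In wild type animals no snf-5 probe set was called, and the lowest adjusted p for 173230_s_at and 194240_x_at were those at 15 min. The arrays of 173230_s_at read 3.93, 4.09 and 4.64 at 15 min, 4.47, 3.83 and 3.59 at 1 h, 3.07, 3.56 and 3.62 at 6 h and 4.40, 3.60 and 4.25 after 1 generation. The 15 min arrays were all above the isotonic ones, with a change of 0.78 (95% interval 0.20 to 1.35, adjusted p = 0.0515), and 194240_x_at changed by 0.50 (95% interval 0.20 to 0.81, adjusted p = 0.0219) while 188234_s_at, with most of its arrays near 2.22, changed by 0.19 (adjusted p = 0.176). After 1 generation the 3 probe sets changed by 0.64, 0.13 and 0.10, with adjusted p of 0.145, 0.641 and 0.586. Against N2 after 1 generation on salt, snf-5 was higher by 2.00, 2.29 and 1.88 in osm-8 mutants, by 4.0, 4.87 and 3.73 in dpy-9 mutants, and by 3.74, 4.63 and 3.68 in dpy-10 mutants, with 5.39%, 12.9% and 14.7% of all probe sets called higher in these comparisons.

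The 3 snf-5 probe sets had Pearson r between 0.99 and 0.998 with each other over the 10 group means. They end in _s_at or _x_at, which marks probes that may bind more than a single transcript, and no snf-5 probe set without that mark was on the array. In the RefSeq annotation of WBcel235, snf-4, listed as a pseudogene, lies 4 protein-coding genes from snf-5 on the same chromosome. The snf-4 probe set read between 1.82 and 2.09 on all 30 arrays and did not rise with snf-5.

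Cell type markers moved strongly in the same mutants. The oocyte and early embryo markers summed to between 44300 and 50600 in osm-8 mutants, between 21100 and 26300 in dpy-9 mutants and between 17600 and 20200 in dpy-10 mutants, against 83900 to 90300 in isotonic N2. All 12 of these genes were called lower in dpy-9 mutants and in dpy-10 mutants, and 0 in osm-8 mutants. The epidermis markers summed to between 1490 and 1770 in osm-8 mutants, between 2660 and 3240 in dpy-9 mutants and between 1870 and 2640 in dpy-10 mutants, against 1010 to 1190 in N2, with 6 of 10 tested genes called higher in each mutant. Of the epidermis genes called, che-14 was above the filter limit by its group means only in the dpy mutants. ptr-4 was above it only in osm-8 and the dpy mutants, so the calls of both genes are a description. Body wall muscle markers summed to between 54100 and 55400 in osm-8 mutants, between 61900 and 65100 in dpy-9 mutants and between 66000 and 70000 in dpy-10 mutants, against 28900 to 31000 in N2, with 2, 5 and 5 of 11 tested genes called higher. Intestine markers summed to between 79200 and 83800 in osm-8 mutants, between 67700 and 72300 in dpy-9 mutants and between 79500 and 82400 in dpy-10 mutants, against 46600 to 51000 in N2, with 2, 4 and 6 of 12 genes called higher. Beside these counts, 7.91%, 16% and 18.1% of all probe sets were called higher in osm-8, dpy-9 and dpy-10 mutants. Called lower were 0.887%, 7.98% and 10.2% in the same order. In osm-7 mutants the oocyte and early embryo sum was 68600 to 73900, the muscle sum 39700 to 42500, the epidermis sum 1140 to 1500 and the intestine sum 52500 to 57800. In osm-11 mutants these sums were 62000 to 72800, 33600 to 45300, 1240 to 1970 and 67000 to 78200 in the same order, so that apart from the epidermis sum of osm-7 all of them lay outside the N2 ranges. The part of these shifts in the snf-3, snf-5, snf-2, snf-9 and snf-11 results was not tested.

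**Figure D3:**
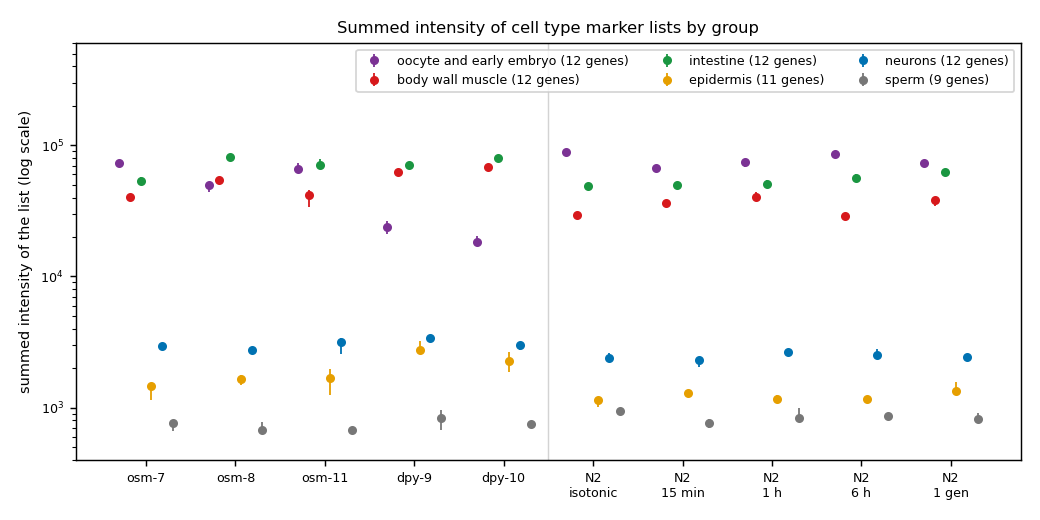
Summed GC-RMA intensity (y axis, log scale) of 6 cell type marker lists in the 10 groups (x axis), with mutants on isotonic plates at the left and N2 at the right; points are medians and bars run from the lowest to the highest of 3 arrays. The oocyte and early embryo sum is between 17600 and 26300 in the dpy mutants and between 83900 and 90300 in isotonic N2, while the muscle sum is between 61900 and 70000 in the dpy mutants and between 28900 and 31000 in isotonic N2.

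The probe sets nearest to snf-5 173230_s_at over the 10 group means were those of msrp-1 (r = 0.9986), phyh-1 (0.9981), Y106G6A.4 (0.997), the cuticle collagen gene col-180 (0.9967) and E03H12.5 (0.9963). Of 13011 candidates, 858 had an r above 0.95. The pattern of high dpy-9 and dpy-10 and middle osm-8 levels was thus shared by many probe sets, where 1 candidate reached that likeness to snf-3.

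snf-2 was called in both dpy mutants and in no other group. Its probe set 193774_s_at read 5.29, 4.75 and 5.01 in dpy-9 mutants and 4.78, 5.19 and 4.86 in dpy-10 mutants, against 2.72, 2.87 and 2.93 in isotonic N2, with no overlap. The changes were 2.17 (SE 0.16, adjusted p = 4.04e-09) and 2.10 (SE 0.16, adjusted p = 5.06e-09), or 4.50-fold and 4.29-fold, and at least 3.41-fold and 3.25-fold against the filter limit. The osm-8 arrays read 3.10, 3.31 and 3.48, all above N2, with a change of 0.45 (SE 0.16, adjusted p = 0.0228) that was not called. The mean of both dpy mutants was higher than osm-8 by 1.68 (SE 0.13, adjusted p = 6.15e-08).

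In the other groups snf-2 moved by 0.10 or less in either direction. The changes were 0.04 in osm-7 mutants and -0.10 in osm-11 mutants, and 0.10 at 15 min, 0.05 at 1 h, -0.03 at 6 h and -0.01 after 1 generation. The second snf-2 probe set, 193773_at, was not tested. It read 2.65, 3.06 and 2.38 in dpy-9 mutants and 3.24, 2.65 and 3.38 in dpy-10 mutants, against 2.46, 2.43 and 2.65 in N2, so that both dpy mutants overlapped N2 and its levels stayed near the lower end of the scale. Probe sets nearest to 193774_s_at were those of Y106G6G.1 (r = 0.9992), ZK1225.5 (0.9991), pck-3 (0.9986), C26B2.2 (0.9985) and Y51B9A.5 (0.9982), and 951 of the 13011 candidates exceeded 0.95.

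snf-9 had the largest spread within groups of the snf probe sets, with an SD of 0.50 pooled over the 10 groups, beside 0.45 for snf-1 174045_s_at. Its probe set 193953_s_at read 7.02, 7.17 and 6.62 in dpy-9 mutants and 7.17, 7.1 and 7.21 in dpy-10 mutants, against 5.95, 5.73 and 4.36 in isotonic N2. Every dpy array lay above every N2 array, and the third N2 array lay well below the others. The changes were 1.59 in dpy-9 mutants (SE 0.44, adjusted p = 0.00407) and 1.82 in dpy-10 mutants (SE 0.44, adjusted p = 0.00147), or 3.02-fold and 3.52-fold. Without the third N2 array they were 1.10 (adjusted p = 0.0302) and 1.32 (adjusted p = 0.0111) and neither was called. The dpy-9 call was also lost without the first dpy-9 array (1.55, adjusted p = 0.0138) or the second (1.48, adjusted p = 0.0173), with no filter (adjusted p = 0.0121), in a fit on the compared groups alone (adjusted p = 0.0104), and with quantile normalization or arrays centred on their medians (1.5 with either).

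Against N2 after 1 generation, whose snf-9 arrays read 5.60, 5.82 and 5.39, the difference was 1.34 in dpy-9 mutants (adjusted p = 0.00299) and 1.56 in dpy-10 mutants (adjusted p = 0.000712), under 3-fold. The osm-8 arrays of snf-9, at 5.94, 6.56 and 6.16, overlapped isotonic N2, with a change of 0.88 (95% interval -0.06 to 1.81, adjusted p = 0.106). The osm-7 arrays read 4.74, 6.03 and 5.74 and the osm-11 arrays 5.62, 4.27 and 6.00, each with a low array like the third of N2. The 4 salt exposures changed snf-9 by between 0.05 and 0.27, with adjusted p of 0.708 or more. The probe sets nearest to snf-9 over the group means were those of the UDP-glucuronosyltransferase gene ugt-6 (r = 0.9933), tsp-11 (0.9923), cysl-2 (0.9915), B0207.11 (0.9906) and sel-15 (0.9903), and 854 candidates exceeded 0.95.

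**Figure D4:**
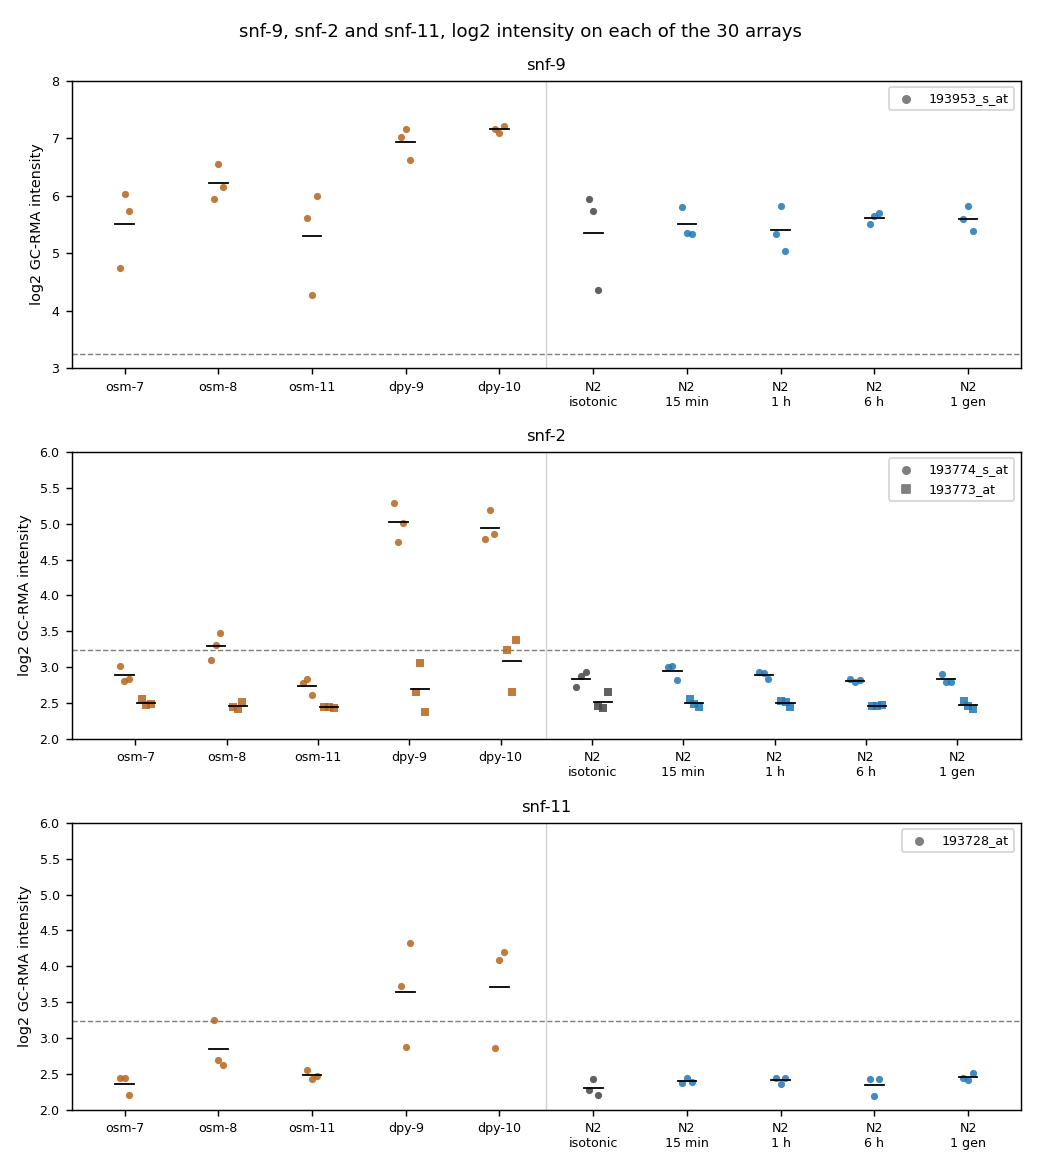
log2 GC-RMA intensity (y axis of each panel) of snf-9, of the snf-2 probe sets 193774_s_at (circles) and 193773_at (squares), and of snf-11 on each array of the 10 groups (x axis), with mutants on isotonic plates at the left and N2 at the right; black bars are means of 3 arrays and the dashed line is the filter limit of 3.24. The third isotonic N2 array of snf-9 is at 4.36, and the snf-11 arrays of dpy-9 spread from 2.87 to 4.32.

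The GABA transporter gene snf-11 rose in both dpy mutants by less than 3-fold. Its arrays read 3.72, 2.87 and 4.32 in dpy-9 mutants and 2.86, 4.09 and 4.20 in dpy-10 mutants, against 2.27, 2.43 and 2.20 in isotonic N2. All 6 dpy arrays lay above the N2 arrays, but the second dpy-9 array and the first dpy-10 array were well below the others of their group. The changes of 1.34 in dpy-9 mutants (SE 0.34, adjusted p = 0.00207) and 1.42 in dpy-10 mutants (SE 0.34, adjusted p = 0.00127) passed the adjusted p limit only. Without the second dpy-9 array the change was 1.72 (adjusted p = 0.000207) and without the first dpy-10 array 1.85 (adjusted p = 5.46e-05), and both were then called. As the N2 arrays were below the filter limit, the rise set against that limit was at least 1.32-fold in dpy-9 mutants and 1.39-fold in dpy-10 mutants.

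In the other groups snf-11 stayed near the lower end of the scale. The osm-8 arrays read 3.25, 2.69 and 2.62, with a change of 0.55 (adjusted p = 0.179), and the remaining 6 groups changed by between 0.05 and 0.19, with adjusted p of 0.246 or more. Of 11 other genes of GABA signalling, 3 were tested. The GABA transaminase gene gta-1 rose by 1.78 in osm-8 mutants, 2.80 in dpy-9 mutants and 2.18 in dpy-10 mutants, the GABA receptor gene unc-49 by 1.83 in dpy-9 mutants and 1.74 in dpy-10 mutants, and the glutamate decarboxylase gene unc-25 by 1.82 in dpy-10 mutants. These are 1, 2 and 3 of the 3 tested genes, and over all probe sets 7.91%, 16% and 18.1% were called higher in these mutants. By its group means unc-25 was above the filter limit only in osm-8 and the dpy mutants, so its call is a description. None of the 3 was called under salt in wild type animals, and the vesicular transporter gene unc-47 was under the filter limit by its mean in every group. Neuron markers, of which 8 of 12 were tested, had 2 genes called higher in osm-8 mutants, 2 in dpy-9 mutants and 3 in dpy-10 mutants, with the neuropeptide processing genes egl-3 and egl-21 in each, and summed to between 3190 and 3480 in dpy-9 mutants and between 2770 and 2980 in dpy-10 mutants, against 2390 to 2630 in N2.

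snf-1 was above the filter limit on every array, at 3.79 on the lowest, and was not called in any group. The probe set 174710_s_at read 6.87, 6.96 and 6.94 in dpy-9 mutants, against 6.61, 6.58 and 6.26 in isotonic N2, a change of 0.44 (SE 0.14, adjusted p = 0.0103), but the other snf-1 probe sets gave 0.17 (193085_at, adjusted p = 0.599) and 0.03 (174045_s_at, adjusted p = 0.948) there. 193085_at read 6.40, 6.22 and 6.68 at 15 min, against 6.89, 6.81 and 6.85 on isotonic plates, a change of -0.41 (SE 0.13, adjusted p = 0.0319), and was -0.31, -0.19 and -0.16 at the later times. Over all 9 comparisons with isotonic N2, the snf-1 probe sets ranged from -0.48 to 0.44. Over the 10 group means they had Pearson r of between 0.182 and 0.529 with each other, so they did not share a clear pattern.

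The remaining members were read at the lower end of the scale on every array. The acetylcholine transporter gene snf-6 lay between 1.88 and 2.03, and snf-12 between 2.15 and 2.30. The sperm activation gene snf-10 lay between 2.21 and 3.18. Its 3 dpy-9 arrays, at 2.95, 2.88 and 2.97, were above the isotonic N2 arrays at 2.25, 2.27 and 2.30, and of the dpy-10 arrays only the first, at 3.18, was. The 15 min arrays, at 2.51, 2.36 and 2.49, were also above them. The other worm SLC6 genes on the array were as dim: the dopamine transporter gene dat-1 ranged from 2.08 to 2.89 over both its probe sets, the serotonin transporter gene mod-5 from 1.84 to 1.95, snf-7 from 1.97 to 2.95 and snf-8 from 2.36 to 2.99. None of these genes was tested.

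**Figure D5:**
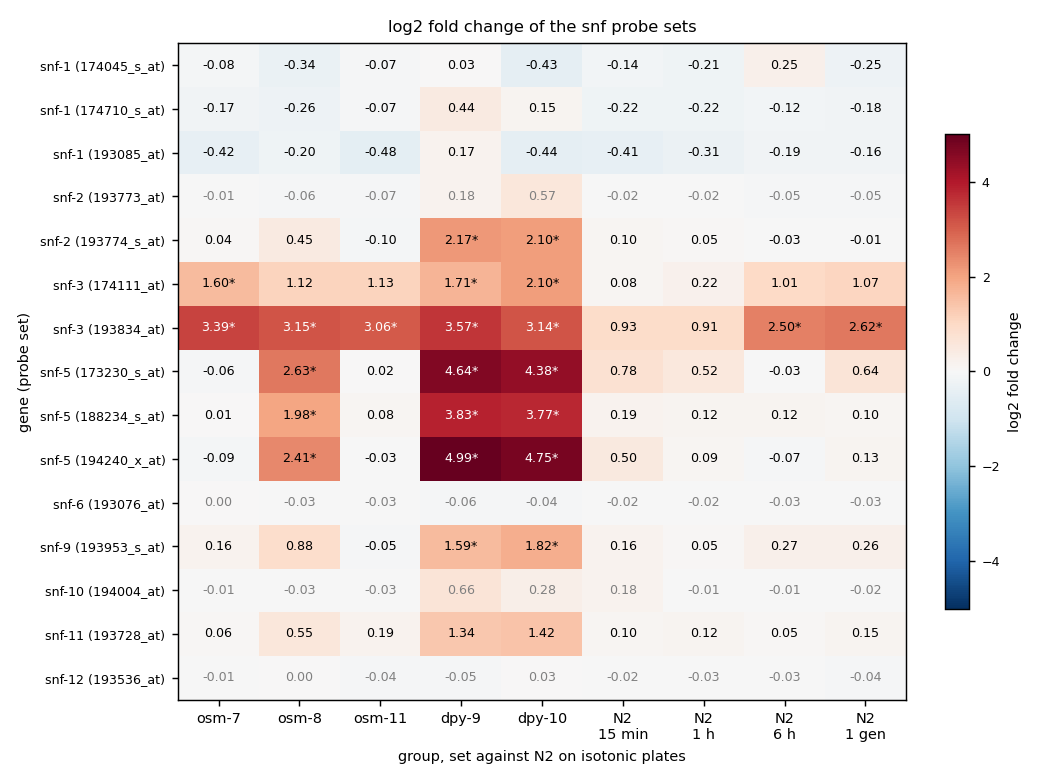
log2 fold change (colour and printed value) of the 15 snf probe sets (y axis) in 5 mutants and 4 salt exposures against isotonic N2 (x axis); an asterisk marks an adjusted p of at most 0.01 with at least 3-fold change, and grey figures are differences of means of untested probe sets. snf-3 193834_at is the only row called in all 5 mutants and at 6 h and 1 generation, and snf-5 is called in osm-8 mutants, dpy-9 and dpy-10.

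Genes that work with the dim members were measured in part. Of 15 genes of acetylcholine signalling 5 were tested and 0 were called in any of the 9 comparisons, with a median change of -0.22 in dpy-9 mutants and -0.16 in dpy-10 mutants, beside -0.23 and -0.22 over all probe sets. Of 11 genes of the dystrophin complex, which anchors SNF-6 in muscle, 10 were tested and the sarcoglycan gene sgn-1 was the only call, at 1.62 in dpy-9 mutants (adjusted p = 2.64e-06) and 2.10 in dpy-10 mutants (adjusted p = 1.18e-07). Of 11 genes of serotonin and dopamine signalling 3 were tested, and the decarboxylase gene bas-1 was called in dpy-10 mutants (2.23, adjusted p = 5.07e-07). Over all probe sets 16% were called higher in dpy-9 and 18.1% in dpy-10 mutants, so a single call says nothing particular of lists this short.

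Of 14 genes of epidermal immune signalling, in which SNF-12 acts, 12 were tested. In osm-11 3 were called higher, dcar-1 (1.98), tir-1 (2.35) and elt-3 (1.64), and the same 3 in dpy-10 mutants (2.30, 1.79 and 2.06). In dpy-9 dcar-1 (2.77) and tir-1 (1.92) were called, in osm-8 mutants elt-3 (1.91), and none in osm-7 or under salt in wild type animals. Over all probe sets 3.18% were called higher in osm-11, 18.1% in dpy-10, 16% in dpy-9 and 7.91% in osm-8 mutants. The counts in dpy-9 and osm-8 are near that background, and the count in dpy-10 is little above it. dcar-1 encodes a receptor for a molecule released on epidermal damage, tir-1 an adaptor protein and elt-3 an epidermal GATA factor, which also stands on the epidermis marker list.

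Of 11 genes of sperm activation 4 were tested. In osm-8 the protease inhibitor gene swm-1 (2.10, adjusted p = 5.87e-07) and the presenilin-like gene spe-4 (2.27, adjusted p = 1.02e-06) were called higher. In dpy-9 and dpy-10 spe-4 was called higher (4.70 and 5.04) and the zinc transporter gene zipt-7.1 lower (-1.77 and -2.03). By its group means spe-4 was above the filter limit only in osm-8, dpy-9 and dpy-10 mutants. Its changes there start from levels under that limit, and its calls are a description. None of the 4 genes was called in osm-7 mutants, in osm-11 or under salt. Beside these 4 genes, the shares of all probe sets called higher and lower were 7.91% and 0.887% for osm-8, 16% and 7.98% for dpy-9 and 18.1% and 10.2% for dpy-10 mutants. The 9 sperm markers with a probe set summed to between 678 and 958 in dpy-9 mutants and between 727 and 795 in dpy-10 mutants, against 873 to 983 in N2, and 3 of their 6 tested genes were called higher in each dpy mutant. Of these 3, spe-26 was above the filter limit by its group means only in the dpy mutants.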

How the data were processed

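RNA of whole, sorted young adults was measured on 30 arrays. Per the labels and the study's methods, the authors ran GC-RMA on the scanner files with Partek software. The deposited values are linear intensity values per probe set; the plan allowed for log2 values, so log2 was taken first. Build and annotation release behind the deposited table were not given in the sources used here. Gene names came from the platform annotation (20766 probe sets with 1 gene, 887 with several, 895 with none, besides 77 controls), and symbols were checked against RefSeq WBcel235, with 0 changed. The column of each sample was matched by its sample identifier, and no other per-sample column was present.

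Present calls were not used here. As many probe sets as the methods call present, those with the highest third-highest value, stood in for them. limma 3.58.1 in R 4.3.3 fitted group means on the log2 scale over the 15 N2 arrays, over the 18 isotonic arrays, and over all 30 for mutants against N2 on salt. The methods used SAM. p-values were Benjamini-Hochberg adjusted over all probe sets tested; a call needed an adjusted p of at most 0.01 and 3-fold. The methods describe individual replicate preparations for the salt time points. The sources used here do not say whether the 3 samples of each mutant came from separate cultures, so there p-values measure the spread between these samples, which may be technical. Precision is limited by 3 arrays per group. The tests were checked on simulated data. Every snf probe set is reported; from the other lists, counts and at most 4 genes with the largest change in a comparison are named, and for each gene called, the 5 probe sets with the highest correlation of group means. Members, gene lists and tests were chosen with earlier results of these data known. alh-9, chdh-1, acr-23, lgc-41 and unc-47 were named after their values were seen. Alternatives tried were quantile normalization, median centring, an offset of 32 before log2, no filter, other sets of arrays in the fit, eBayes with trend, a replicate block, probe set choices, a looser call and leaving out each array. Figures were drawn with matplotlib 3.10.9.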

Additional observations from a re-analysis of the deposited data

Results flagged for a closer look

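The results below are differences between groups that a direct test of the difference itself called. The probe sets 193774_s_at of snf-2 and 188234_s_at of snf-5 were tested only because they were high in osm-8, dpy-9 or dpy-10 mutants. Their p-values and calls below are a description. In N2, the snf-3 probe set 193834_at was higher after 6 h than after 1 h on 200 mM NaCl by 1.59 on the log2 scale (adjusted p = 0.000136), in 3 of 3 arrays against 3 of 3. snf-5 was higher in osm-8 than in osm-7 mutants by 2.70 (173230_s_at), 1.97 (188234_s_at) and 2.50 (194240_x_at), with adjusted p between 9.24e-09 and 3.96e-07, while both strains carry the label osm and both had high snf-3.

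The mean of dpy-9 and dpy-10 was higher than osm-8 by 1.68 for snf-2 (193774_s_at) and by 1.87 (173230_s_at), 1.82 (188234_s_at) and 2.46 (194240_x_at) for snf-5, with adjusted p between 4.19e-09 and 1.49e-07. All 6 dpy arrays lay above all 3 osm-8 arrays for each of these probe sets.

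Set against N2 grown for 1 generation on 200 mM NaCl, snf-5 was higher in osm-8 by 2.00 (173230_s_at), 1.88 (188234_s_at) and 2.29 (194240_x_at). In dpy-9 it was higher by 4.0, 3.73 and 4.87 in the same order, and snf-2 by 2.19. In dpy-10 snf-5 was higher by 3.74, 3.68 and 4.63, and snf-2 by 2.12. Genotype and salt both differ in these comparisons and cannot be told apart. Against the same N2 group, oocyte and early embryo sums were lower and muscle and intestine sums higher in osm-8, dpy-9 and dpy-10. The epidermis sum was higher in both dpy mutants and overlapped in osm-8, at 1490 to 1770 against 1290 to 1560 in N2. The part of these marker shifts in the differences was not tested.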

How the results depend on the processing

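Of 828 fold changes of single probe sets under the alternatives that keep every array, 807 kept their direction and side of the call, 21 were no longer called and 0 reversed. Of 594 that leave out an array, 586 kept both, 6 were lost, 2 were gained and 0 reversed. Most of the fold changes in both sets were called in neither fit, so they could hardly change side. Of the 21 no longer called, most were lost with the offset of 32. Leaving out arrays moved the count of snf probe sets called by over 1.5 times in 2 comparisons, osm-7 against N2 (1 to 2, lowest without the second osm-7 array) and 6 h against 1 h (0 to 1, lowest without the third 1 h array or the second 6 h array). Adding 32 to the intensities before log2, which shrinks changes of dim probe sets by construction, left 0 calls at 6 h, 0 after 1 generation, 1 in osm-7, 1 in osm-8, 3 in dpy-9, 3 in dpy-10, 0 for 6 h against 1 h, 0 for osm-8 against osm-7, 1 for the dpy mean against osm-8, and 0, 2 and 2 for osm-8, dpy-9 and dpy-10 against N2 after 1 generation. With that offset snf-3 193834_at changed by 1.21 at 6 h and 1.30 after 1 generation. Without probe sets ending in _s_at or _x_at, the only snf-5 probe sets are lost, and 1 call was left in osm-8, 2 in dpy-9, 2 in dpy-10, 0 for osm-8 against osm-7, 0 for the dpy mean against osm-8 and 0 for osm-8, dpy-9 and dpy-10 against N2 after 1 generation. Counting 1 probe set per gene gave 1 in osm-7, 2 in osm-8, 4 in dpy-9, 4 in dpy-10, 1 for osm-8 against osm-7, 2 for the dpy mean against osm-8, and 1, 2 and 2 for osm-8, dpy-9 and dpy-10 against N2 after 1 generation. A fit on the compared groups alone, or arrays centred on their medians, left 1 call in osm-7, and quantile normalization left 0 for 6 h against 1 h; the cause was not tested. An adjusted p of at most 0.05 with no minimum fold, a looser rule, called 3 at 15 min, 1 at 1 h, 2 at 6 h, 2 after 1 generation, 2 in osm-11, 2 for 6 h against 1 h, 7 for the dpy mean against osm-8, and 9 and 8 for dpy-9 and dpy-10 against N2 after 1 generation. The share of all probe sets that this looser rule calls was not counted, so these counts cannot be set against a background. The labels number the replicates. Deviations from the group means had r between -0.463 and 0.407 over 135 pairs of samples of the same number, with a median of 0.014 and 46 over 0.1. Over 270 pairs of different number r was between -0.428 and 0.524, with a median of 0 and 68 over 0.1. A replicate block gave the same counts, such as 7 in dpy-9 and 4 in osm-8. Low intensity limits what can be said of snf-6, snf-10, snf-12 and the N2 levels of snf-2, snf-5 and snf-11.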
